A study of Mus musculus with 50 samples.

Results

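The subject is the maternal liver after low-dose GenX: 5 arrays of dams given GenX at 2 mg/kg/day (GenX2 livers) against 5 arrays of vehicle dams (control livers), 10 of the 50 arrays of the series. They were taken by the sample titles, and all 30788 genes with a gene symbol on the array were tested, with the brightest probe standing for each gene. All were pregnant CD-1 mice of unstated age, an outbred strain, dosed by mouth once a day from embryonic day 1.5 to 17.5 and killed on gestational day 17.5, and a piece of the left lateral liver lobe was snap frozen. The other maternal groups, which share the estimate of the spread, received GenX at 10 mg/kg/day (GenX10 livers, 5 arrays) or, with 5 arrays each, the older compound PFOA (perfluorooctanoic acid) at a dose of 1 or of 5 mg/kg/day, and the remaining arrays are of fetal livers. Each array stands for 1 dam, so the spread between arrays is that between animals.

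GenX is the trade name of hexafluoropropylene oxide dimer acid, a perfluoroalkyl ether acid used in place of PFOA in making fluoropolymers. In rodent liver such acids activate PPARα, the nuclear receptor that senses fatty acids. With its partner RXR it binds a direct repeat of the site AGGNCA with 1 base between, and it turns on fatty acid uptake, activation and oxidation in peroxisomes, mitochondria and the endoplasmic reticulum. Values are RMA levels on the log2 scale, so a difference of 1 is a doubling, and levels of different probes are not compared. Calls rest on limma's fit of the 25 maternal arrays, with p adjusted by Benjamini and Hochberg over all genes and a threshold of 0.05. For a group without any array over the 95th percentile of the array's own negative controls, the gene is said to be not well above background. Where that holds for control livers alone, a fold is a lower bound, written "at least".

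In GenX2 livers 1039 genes were called, 3.37% of those tested, of which 750 were higher (2.44%) and 289 lower (0.939%). Of the called genes, 102 differed at least 2-fold and 356 were not well above background in either group. The 5 GenX2 arrays lay wholly to one side of the 5 control arrays for 1191 genes (3.87%), 763 of them higher (2.48%) and 428 lower (1.39%). The count of 1039 was 704 without GenX2 replicate 1 or without control replicate 3, and 2435 without GenX2 replicate 4. GenX2 replicate 1 lay farthest out on the first principal component of the 10 arrays, at 29.66, against 4.59 to 11.69 in the other GenX2 arrays and -14.7 to -10.84 in control arrays. GenX2 replicate 4 had the lowest array weight of its group, 0.304. It was also the GenX2 array with the fewest genes above background, 5960, against 6515 to 7021 in the other GenX2 arrays and 5790 to 6145 in control arrays.

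**Figure D1:**
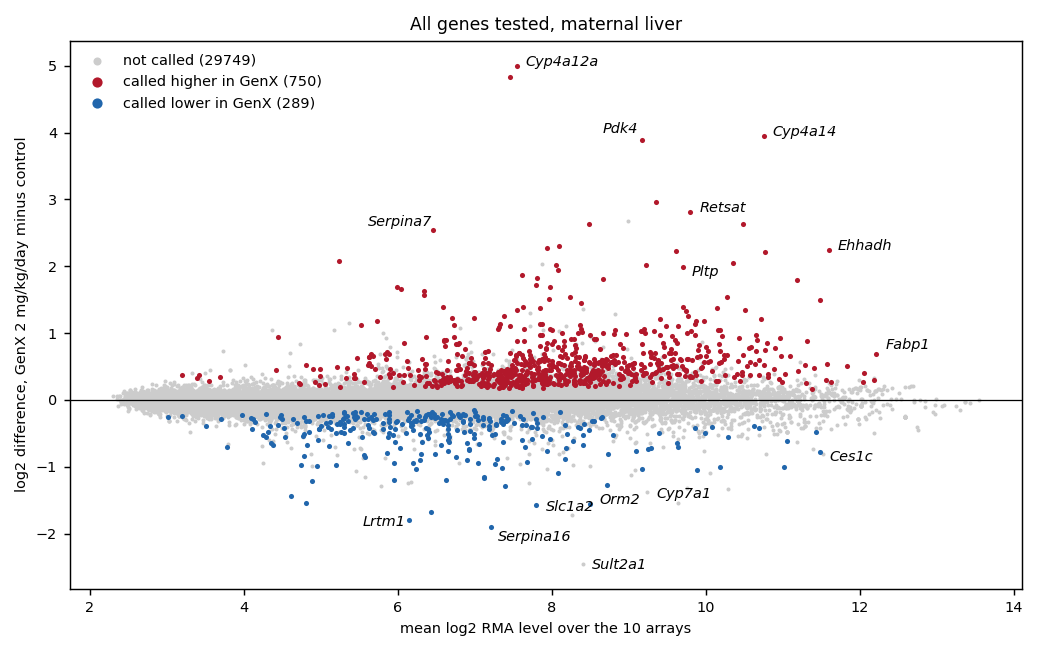
Log2 difference of GenX2 minus control (vertical axis) against the mean log2 RMA level over the 10 arrays (horizontal axis), 1 point a gene. Red points are the 750 genes called higher in GenX2 livers, blue points the 289 called lower, and grey points were not called. The largest called differences are higher ones, led by Cyp4a12a and its copy Cyp4a12b, then Cyp4a14 and Pdk4.

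Genes of fatty acid breakdown were higher across all its compartments in GenX2 livers. Of 24 measured genes of peroxisomal oxidation 19 rose, with a median difference of 0.74 over the list, against -0.029 over all genes tested. Of 16 genes of peroxisome assembly and division 9 rose, and none of either list fell. Ehhadh, the bifunctional enzyme that carries out the middle steps of the peroxisomal cycle, measured 12.95, 12.70, 12.78, 12.55 and 12.61 in GenX2 livers, against 10.40, 10.59, 10.36, 10.55 and 10.47 in control livers. Its groups were far apart and tight within themselves, with a difference of 2.24 ± 0.20 (SE, n = 5 each, limma adjusted p = 7.80e-07). The thiolase of the last step, Acaa1b, was higher by 2.06 ± 0.23 (SE, limma adjusted p = 4.78e-06). Pex11a, which elongates peroxisomes before they divide, measured 9.77, 8.78, 9.39, 8.86 and 8.47 in GenX2 livers, against 7.28, 7.05, 6.90, 7.25 and 7.09 in control livers. Control livers were not well above background for it, and it was at least 2.71-fold higher (limma adjusted p = 4.14e-06). The rise reached the import factors Pex19 (0.72) and Pex3 (0.45) and the matrix protease Lonp2 (0.68). It did not reach every peroxisomal enzyme: catalase (Cat) differed by 0.32 (adjusted p = 0.0646) and Phyh, the first enzyme of phytanic acid breakdown, by 0.07 (adjusted p = 0.654).

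In mitochondria, 18 of 19 measured genes of β-oxidation and 8 of 10 of the carnitine shuttle rose, with list medians of 0.70 and 0.79. Cpt1a, the enzyme that couples long-chain acyl groups to carnitine at the outer membrane and so limits the rate of their entry, measured 10.80, 10.48, 10.56, 10.53 and 10.39 in GenX2 livers. In control livers it measured 9.81, 9.59, 9.86, 9.98 and 9.84, below every GenX2 array, and the difference was 0.73 ± 0.12 (SE, limma adjusted p = 3.03e-04). The carrier Slc25a20 differed by 1.19 and the inner-membrane enzyme Cpt2 by 1.01. The plasma membrane carnitine transporter Slc22a5 was at least 1.63-fold higher, since control livers were not well above background for it. Within the cycle the largest differences were in Eci1 (1.33), which moves double bonds, Hadhb (1.14), a subunit of the trifunctional protein, and Acadm (0.95), the medium-chain dehydrogenase. Echs1, the short-chain hydratase, was the single member not called, at 0.26 (adjusted p = 0.0943).

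The pathways that take up the products of oxidation moved less. All 28 measured nuclear-encoded genes of oxidative phosphorylation had a positive difference, against 12229 of all 30788 genes tested. The 2 shares are not like for like. Of all genes tested 23037 were not well above background in either group, against 2 of the 28. The median of the 28 was 0.27, but only 8 were called. All 16 of the tricarboxylic acid cycle were positive too, with a median of 0.30 and 6 called. The count for oxidative phosphorylation was 2 without GenX2 replicate 1, 17 without GenX2 replicate 4 and 3 to 6 without any other array, and it was 2 in the fit of the 10 arrays alone. That for the tricarboxylic acid cycle was 3 without GenX2 replicate 1 and 12 without GenX2 replicate 4. Relative to the control mean, the median of the first list was 0.57 in GenX2 replicate 1, against 0.09 to 0.25 in the other GenX2 livers. Sdhd, a membrane subunit of complex II, differed by 0.47 (adjusted p = 0.00397) and Dlst, a subunit of the 2-oxoglutarate dehydrogenase complex, by 0.53 (adjusted p = 1.23e-04). Neither call was lost when any 1 array was left out.

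**Figure D2:**
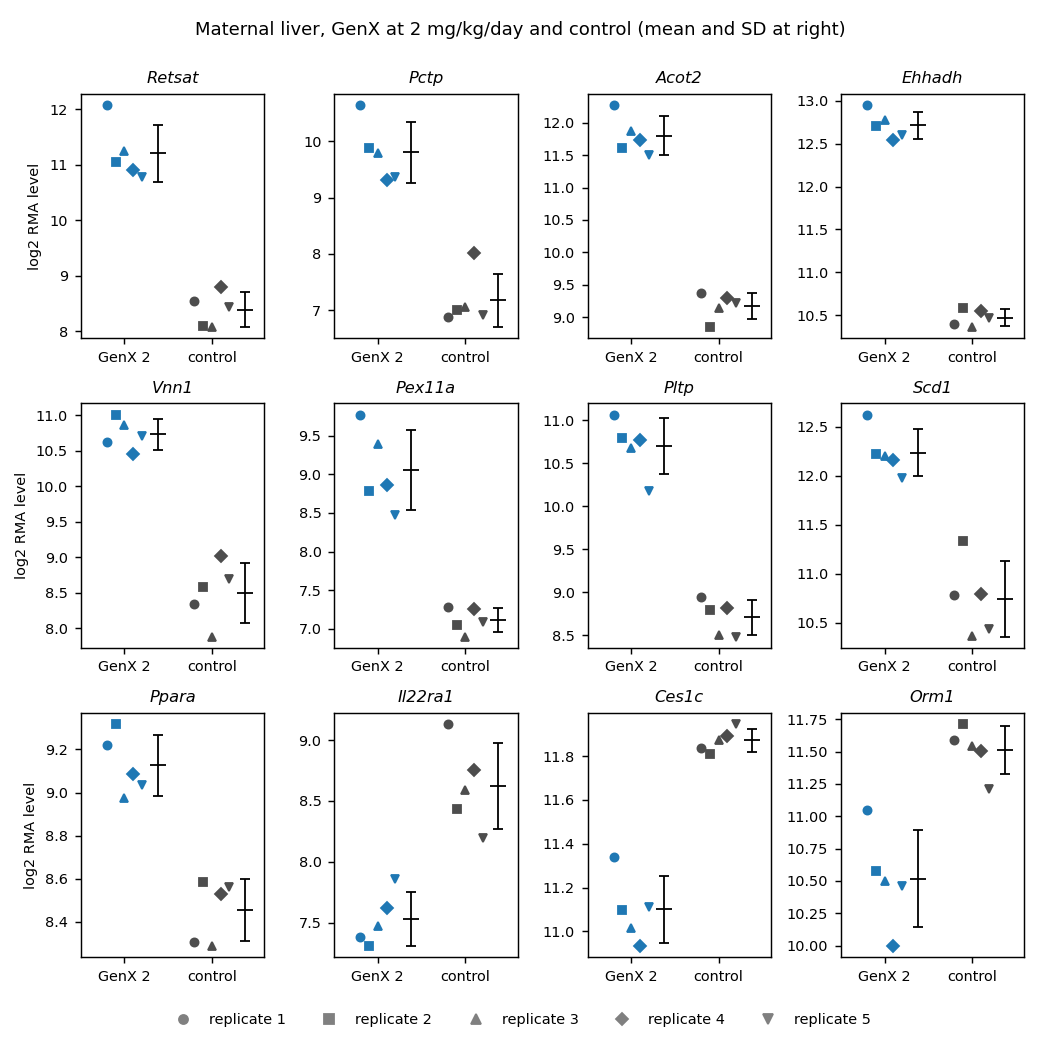
Log2 RMA level (vertical axis) of 12 genes in the 5 GenX2 livers and the 5 control livers, with marker shape giving the replicate number and the mean ± SD drawn to the right of each group. The groups do not overlap for any of the 12 genes: 9 are higher in GenX2 livers, and Il22ra1, Ces1c and Orm1 are lower.

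Of 18 measured acyl-CoA thioesterases and genes of coenzyme A turnover 9 were higher and none lower. Some were already counted above, such as Acot3 and Acot4 on the peroxisomal list and Acot2 on that of mitochondrial β-oxidation. Acot2, the mitochondrial acyl-CoA thioesterase, which frees fatty acids from coenzyme A, measured 12.27, 11.61, 11.88, 11.73 and 11.50 in GenX2 livers. It measured 9.38, 8.84, 9.14, 9.29 and 9.22 in control livers, a difference of 2.63 ± 0.27 (SE, limma adjusted p = 2.12e-06) with no overlap. Acot1 is a near-identical copy of Acot2, so signal may be shared between their probes. The peroxisomal thioesterases Acot3 and Acot4 were at least 2.75-fold and 2.30-fold higher, because control livers were not well above background for either. Vnn1, a pantetheinase that recycles the pantothenate part of coenzyme A, measured 10.62, 11.01, 10.86, 10.45 and 10.71 in GenX2 livers, against 8.34, 8.58, 7.88, 9.01 and 8.69 in control livers. Its difference was 2.23 ± 0.28 (SE, limma adjusted p = 2.38e-05), and the lowest GenX2 liver stood well over the highest control liver.

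In the endoplasmic reticulum, 8 of 12 measured genes of ω-oxidation rose and 1 fell. Aldh3a2, which oxidises fatty aldehydes, was higher by 1.54 ± 0.17 (SE, limma adjusted p = 5.33e-06). Cyp4a12a, which adds a hydroxyl group at the far end of fatty acids, varied widely among treated dams, at 12.39, 8.21, 9.97, 9.38 and 10.28 in GenX2 livers, against 5.03, 5.08, 5.07, 5.09 and 4.95 in control livers. No control liver was well above background for it, and it was at least 5.40-fold higher (limma adjusted p = 2.34e-04), though its copy Cyp4a12b may share signal. The highest of its GenX2 values was in replicate 1. Abcc3, an efflux transporter of the sinusoidal membrane, had the same replicate highest, with 10.49 in GenX2 replicate 1 and 8.51 to 9.21 in the other GenX2 livers, against 6.79 to 7.19 in control livers.

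**Figure D3:**
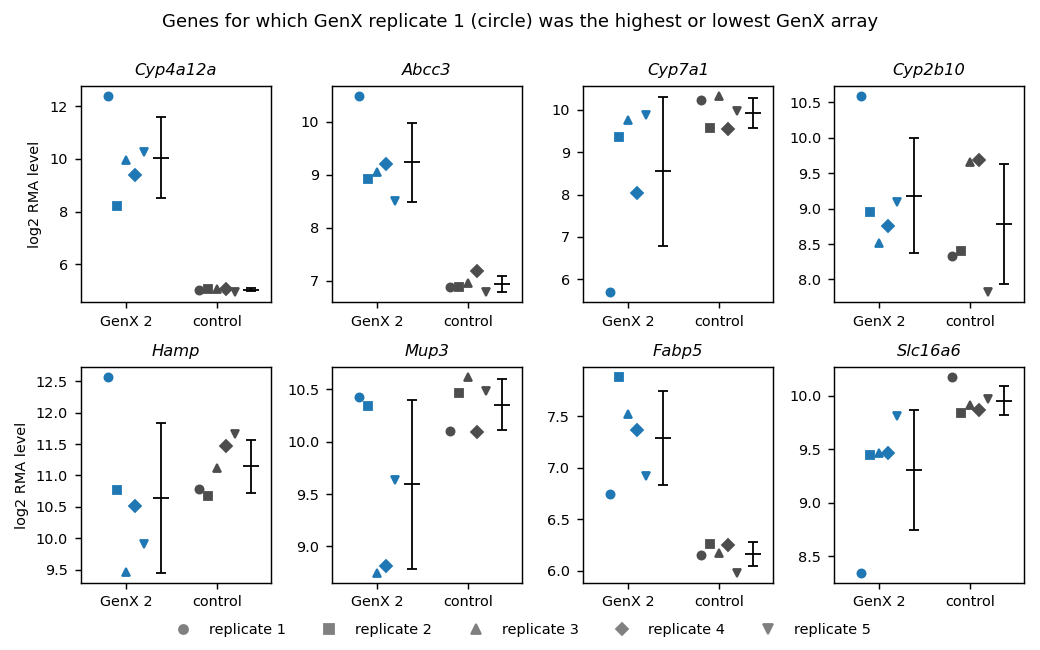
Log2 RMA level (vertical axis) of 8 genes, chosen after their values were seen, for which GenX2 replicate 1 (circle) was the highest or lowest GenX2 array, with GenX2 livers left of control livers and mean ± SD at the right of each group. Replicate 1 is highest for Cyp4a12a, Abcc3, Cyp2b10, Hamp and Mup3, and lowest for Cyp7a1, Fabp5 and Slc16a6.

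Fatty acid uptake and binding rose in part: 9 of 18 measured genes of acyl-CoA synthesis and uptake were called, all higher. Fabp1, the liver fatty acid binding protein, is a textbook PPARα target. It is shown here because its promoter was the only one to hold the direct repeat among the genes that rose and were searched. Its window from 250 bases before to 50 bases after the start, at chr6:71199629-71199928 on the plus strand (RefSeq, GRCm38.p6), is printed with the match in capitals, on the reverse strand.
Fabp1: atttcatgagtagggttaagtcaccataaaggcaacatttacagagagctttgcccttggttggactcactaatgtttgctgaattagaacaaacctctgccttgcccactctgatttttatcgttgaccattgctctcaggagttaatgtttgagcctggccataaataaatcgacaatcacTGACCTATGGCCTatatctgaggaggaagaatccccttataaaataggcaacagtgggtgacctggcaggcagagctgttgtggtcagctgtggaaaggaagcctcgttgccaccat
The repeat was searched on both strands as AGGNCA, any base, AGGNCA. The search took the genes that rose on the lists of fatty acid breakdown, peroxisomes, thioesterases, uptake and droplets. It also took those on the pyruvate dehydrogenase list and the list of other PPAR-responsive genes, but not those of fatty acid synthesis. Of these 91 genes, 72 had a promoter in the RefSeq table, with 88 windows, of which 1 held a match (1.14%), against 125 of all 32851 windows (0.381%). Fabp1 measured 12.62, 12.64, 12.59, 12.39 and 12.55 in GenX2 livers, against 11.87, 11.86, 11.80, 11.80 and 12.04 in control livers. The groups did not overlap, and the difference was 0.68 ± 0.08 (SE, limma adjusted p = 7.83e-06). Cd36, the fatty acid translocase of the cell surface, differed by 1.37 ± 0.20 (SE, limma adjusted p = 1.61e-04), and the very-long-chain acyl-CoA synthetase Slc27a2 by 0.88.

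At the lipid droplet 6 of 18 measured genes rose, but only 3 did without GenX2 replicate 1, GenX2 replicate 3, control replicate 3 or control replicate 5. Plin2, the coat protein of hepatocyte droplets, measured 11.35, 10.98, 11.32, 11.20 and 10.85 in GenX2 livers, against 10.33, 9.95, 10.10, 10.33 and 10.16 in control livers. The groups did not overlap (difference 0.97 ± 0.12 SE, limma adjusted p = 1.36e-05). Mgll, which cleaves monoacylglycerols, differed by 1.04 and Fitm2, which helps droplets bud from the endoplasmic reticulum, by 0.83. The droplet genes Plin5 and G0s2 did not pass, with differences of 0.40 and 0.88 and adjusted p of 0.105 and 0.119.

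Genes of lipid synthesis were also higher in GenX2 livers. Of 24 measured genes of fatty acid and triglyceride synthesis 12 rose and none fell, and of 20 of cholesterol synthesis and uptake 11 rose and none fell. Scd1, the desaturase that makes oleate, measured 12.62, 12.22, 12.20, 12.16 and 11.97 in GenX2 livers, against 10.78, 11.33, 10.36, 10.79 and 10.43 in control livers. Even the highest control liver stood below the lowest GenX2 liver, and the difference was 1.50 ± 0.15 (SE, limma adjusted p = 1.43e-06). Lpin2, a phosphatidate phosphatase, differed by 1.00, the elongase Elovl5 by 0.93 and acetyl-CoA carboxylase (Acaca), the committed step of fatty acid synthesis, by 0.68.

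In sterol synthesis Hsd17b7, a 3-ketosteroid reductase, differed by 1.06 ± 0.11 (SE, limma adjusted p = 2.12e-06), the mevalonate pathway kinase Pmvk by 0.78 and the late reductase Dhcr7 by 0.55. Hmgcs1, the cytosolic HMG-CoA synthase, measured 11.07, 11.40, 11.27, 11.01 and 11.32 in GenX2 livers, against 9.99, 10.95, 10.33, 10.20 and 10.35 in control livers. Control replicate 2 came within a small distance of the GenX2 range without entering it (difference 0.85 ± 0.14 SE, limma adjusted p = 4.29e-04). SREBP proteins drive this pathway when sterols are low, and the Hmgcs1 promoter is shown because it was the only one among the sterol genes that rose to hold the element searched, TCACNCCAC on either strand. The window is chr13:119690101-119690400 on the plus strand (RefSeq, GRCm38.p6), with the match in capitals.
Hmgcs1: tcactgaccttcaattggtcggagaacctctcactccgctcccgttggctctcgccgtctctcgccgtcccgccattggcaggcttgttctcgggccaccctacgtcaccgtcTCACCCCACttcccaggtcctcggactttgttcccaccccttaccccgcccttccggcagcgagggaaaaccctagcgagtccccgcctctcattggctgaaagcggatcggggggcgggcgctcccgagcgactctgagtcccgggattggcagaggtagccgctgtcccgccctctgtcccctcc
Of the 11 sterol genes that rose 9 had a promoter in the table, with 12 windows, of which 1 held a match (8.33%), against 408 of all windows (1.24%).

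Lipid carried out of or between compartments was represented by single strong changes. Pctp, which binds and moves phosphatidylcholine, measured 10.64, 9.89, 9.80, 9.32 and 9.36 in GenX2 livers, against 6.87, 7.0, 7.05, 8.01 and 6.92 in control livers. Control replicate 4 stood well above the other control livers, and it was the only control liver above background (difference 2.63 ± 0.32 SE, limma adjusted p = 1.46e-05). Pltp, the plasma phospholipid transfer protein, measured 11.07, 10.80, 10.68, 10.77 and 10.18 in GenX2 livers, against 8.94, 8.79, 8.50, 8.82 and 8.48 in control livers. It differed by 1.99 ± 0.20 (SE, limma adjusted p = 2.12e-06) and stood out from its list, in which 4 of 19 genes of apolipoproteins and lipoprotein remodelling rose, 1 fell and the median was 0.02. That count of 5 called was 2 without GenX2 replicate 1, GenX2 replicate 3, control replicate 3 or control replicate 4. Angptl4, an inhibitor of lipoprotein lipase, differed by 0.92 (adjusted p = 1.65e-04).

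Of the named genes with a role in retinoid metabolism, Retsat rose strongly and Cyp26a1 fell. Rdh16, a retinol dehydrogenase, rose too, with differences of 0.86 to 1.10 across the alternative fits and its call kept in all 19. Aldh1a1, called higher as well, differed by 0.30 to 0.52, a call lost in 12 of the 19. Retsat, which saturates retinol and is a known PPAR target in adipocytes, measured 12.07, 11.06, 11.24, 10.90 and 10.78 in GenX2 livers, against 8.54, 8.09, 8.07, 8.80 and 8.45 in control livers. It differed by 2.82 ± 0.32 (SE, limma adjusted p = 5.20e-06), and no array of the other group came near. Cyp26a1, which breaks down retinoic acid, measured 6.84, 6.89, 6.47, 6.98 and 6.99 in GenX2 livers, against 7.65, 8.10, 7.74, 7.39 and 8.41 in control livers. GenX2 livers were not well above background, and it was at least 1.27-fold lower there (limma adjusted p = 0.00427).

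Among 22 measured PPAR-responsive genes of other function 13 rose, with a median of 0.71. Txnip, which binds thioredoxin and limits glucose uptake, measured 9.58, 9.68, 9.65, 9.66 and 10.00 in GenX2 livers, against 8.71, 8.58, 8.61, 8.81 and 8.84 in control livers. Its difference of 1.00 ± 0.09 (SE, limma adjusted p = 9.13e-07) rested on groups with little spread. Ephx2, the soluble epoxide hydrolase, differed by 1.20 and Hsdl2, a peroxisomal dehydrogenase-like protein, by 1.04. Serpina7, which encodes thyroxine-binding globulin, measured 8.25, 7.34, 8.19, 7.20 and 7.67 in GenX2 livers, against 4.61, 4.91, 4.79, 5.82 and 5.82 in control livers. Only 3 GenX2 livers and no control liver were above background for it, so the bound is at least 1.09-fold (limma adjusted p = 1.40e-04).

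The receptor Ppara itself rose. It measured 9.22, 9.32, 8.97, 9.09 and 9.03 in GenX2 livers, against 8.31, 8.59, 8.29, 8.53 and 8.56 in control livers, a difference of 0.67 ± 0.13 (SE, limma adjusted p = 0.00369) without overlap. Of 20 measured nuclear receptors and coregulators 6 rose, and that count was 3 without GenX2 replicate 1. Its partner Rxra differed by 0.07 (adjusted p = 0.597) and Hnf4a, the hepatocyte master regulator, by -0.01 (adjusted p = 0.959). The pregnane X receptor Nr1i2 differed by 0.49 (limma adjusted p = 0.0126), a call lost without GenX2 replicate 1 (adjusted p = 0.0519).

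Few genes on the lists of targets of other sensors of foreign compounds were called. No test of a list as a whole was run, and the counts hold only for the genes listed. None of 19 measured targets of CAR and PXR and none of 7 of AhR was called, with medians of -0.02 and -0.07, and 6 of the 7 AhR targets were not well above background in either group. At an unadjusted p under 0.05 the counts were 5 and 1, where all genes tested gave 5153 of 30788. Without GenX2 replicate 1 the CAR and PXR list had 2 calls. Cyp2b10, the index target of CAR, measured 10.59, 8.96, 8.52, 8.76 and 9.09 in GenX2 livers, against 8.33, 8.40, 9.66, 9.69 and 7.82 in control livers. The groups overlapped (difference 0.40 ± 0.40 SE, limma adjusted p = 0.651), with the highest value in GenX2 replicate 1. Of 17 NRF2 targets 2 rose, and the count was 4 without GenX2 replicate 4 and 1 without GenX2 replicate 1, GenX2 replicate 3, control replicate 1, control replicate 3 or control replicate 5. The list's median was 0.55 in GenX2 replicate 1, against -0.04 to 0.03 in the other GenX2 livers. Ephx1, the microsomal epoxide hydrolase and 1 of the 2 NRF2 targets that rose, differed by 0.78 (limma adjusted p = 0.00343). Fmo5, a flavin monooxygenase on the list of glutathione transferases and detoxification, rose at least 1.68-fold (limma adjusted p = 2.33e-04).

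**Figure D4:**
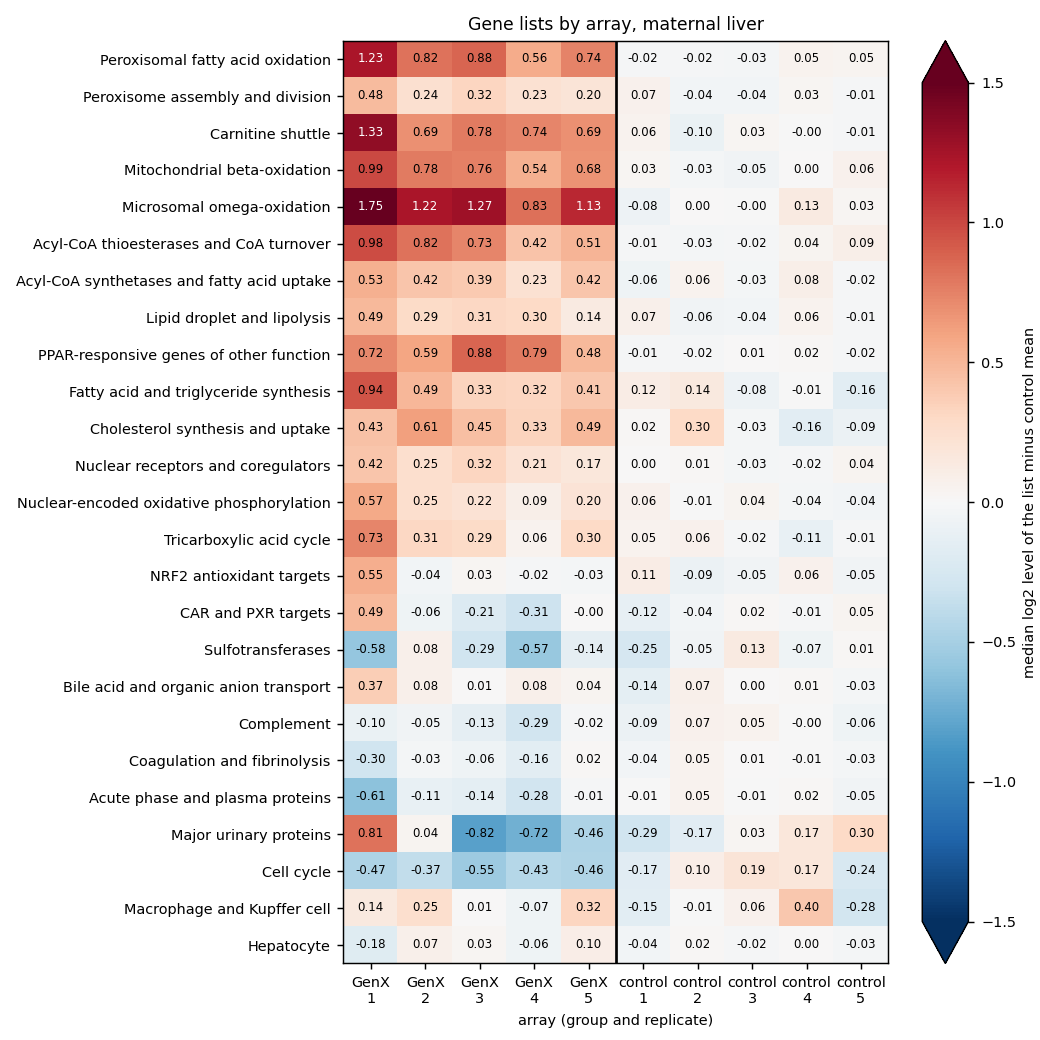
Median log2 level of each gene list on each array minus the mean of the control arrays (colour and printed value; red is higher), for 25 lists (vertical axis) over the 5 GenX2 arrays and then the 5 control arrays (horizontal axis). The lists of fatty acid oxidation are higher on all 5 GenX2 arrays, while those of NRF2 targets and major urinary proteins are higher mainly on GenX2 replicate 1.

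Of 26 measured transporters of bile acids and organic anions 7 rose and 1 fell, with a list median of 0.10. Abcg5 and Abcg8, the subunits of the sterol pump that exports cholesterol into bile, differed by 1.00 ± 0.12 and 1.01 ± 0.15 (SE, limma adjusted p = 7.83e-06 and 1.98e-04). The efflux pump Abcc4 measured 8.24, 7.73, 7.91, 7.86 and 7.77 in GenX2 livers, against 6.61, 6.73, 6.79, 6.95 and 6.70 in control livers. Control livers were not well above background, so it was at least 1.22-fold higher (limma adjusted p = 0.00109). By the same reading Abcg2 was at least 1.47-fold and Abcc3 at least 3.08-fold higher. The bile salt export pump Abcb11 differed by -0.11 (adjusted p = 0.617).

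Bile acid synthesis had few calls as a list, with 2 of 18 measured genes higher, both of them peroxisomal (Scp2 and Acox2). At an unadjusted p under 0.05 it had 8, against 5153 of all 30788 genes tested. Cyp7b1, named after its values were seen, differed by -0.97 ± 0.33 (SE) and was not called (limma adjusted p = 0.118). Cyp7a1, the rate-limiting enzyme of the classic route, measured 5.70, 9.36, 9.75, 8.05 and 9.88 in GenX2 livers, against 10.22, 9.57, 10.33, 9.54 and 9.96 in control livers. GenX2 replicate 1 was far below every other liver, the groups overlapped, and the difference of -1.38 ± 0.52 (SE) was not called (limma adjusted p = 0.168). Sult2a1, a sulfotransferase of bile acids and steroids that shares sequence with Sult2a2, was named after its values were seen. It measured 4.74, 10.16, 4.01, 8.54 and 8.46 in GenX2 livers, against 9.19, 9.54, 10.21, 9.55 and 9.66 in control livers. Of its GenX2 values 4 lay below the control range and that of replicate 2 inside it, and the difference of -2.45 ± 1.12 (SE) was not called (limma adjusted p = 0.266), nor was any of the 14 measured sulfotransferases in the limma fit (2 at an unadjusted p under 0.05, and 1 call without GenX2 replicate 5 or control replicate 1).

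Secreted liver proteins were among the genes that fell. Of 28 measured acute phase and plasma proteins 8 fell and 1 rose, with a median of -0.28. Orm1, an acute phase lipocalin, measured 11.05, 10.58, 10.50, 10.00 and 10.46 in GenX2 livers, against 11.59, 11.71, 11.55, 11.51 and 11.21 in control livers. All GenX2 livers were lower (difference -0.997 ± 0.21 SE, limma adjusted p = 0.00567), with the reservation that Orm2 is nearly identical. The pentraxin Apcs, serum amyloid P, differed by -0.71 (adjusted p = 0.00109) and serum amyloid Saa2, close to Saa1 in sequence, by -0.77 (adjusted p = 0.00113). Crp, the C-reactive protein, differed by -0.42 (adjusted p = 0.00611). In a fit of all 50 arrays the calls of Apcs and Crp were lost (adjusted p = 0.0669 and 0.0698). Major carriers such as albumin (Alb, -0.04, adjusted p = 0.658), haptoglobin (Hp, 0.15, adjusted p = 0.47) and Lbp (0.02, adjusted p = 0.969) did not pass.

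Il22ra1, the liver's receptor subunit for interleukin 22, a cytokine that induces acute phase genes, measured 7.39, 7.31, 7.48, 7.62 and 7.86 in GenX2 livers, against 9.13, 8.43, 8.59, 8.75 and 8.20 in control livers. It fell in all GenX2 livers (difference -1.09 ± 0.16 SE, limma adjusted p = 1.32e-04), of which 2 were above background for it. Of 25 measured complement genes 3 fell, and none did without control replicate 3. None of 26 genes of coagulation and fibrinolysis was called, with 6 at an unadjusted p under 0.05, against 5153 of all 30788 genes. Markers of macrophages and Kupffer cells, the resident cells that release acute phase cytokines, gave no call in 15 genes, nor any unadjusted p under 0.05 (0 genes), with a median of 0.11. Their part in the lower plasma protein genes was not tested.

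The carboxylesterase Ces1c, the plasma esterase of mice, measured 11.34, 11.10, 11.02, 10.93 and 11.11 in GenX2 livers, against 11.84, 11.81, 11.87, 11.89 and 11.95 in control livers. Control livers were closely packed and all above the GenX2 livers (difference -0.77 ± 0.10 SE, limma adjusted p = 2.62e-05). Ces1b of the same gene cluster differed by -1.04 ± 0.19 (SE, limma adjusted p = 0.00184). Both belong to a list of 19 carboxylesterases, paraoxonases and aldehyde oxidases in which 1 other gene rose (6 calls in all without GenX2 replicate 4) and Ces1d, Ces1g and Ces2a were not called (0.19, -0.24 and -0.02).

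Genes of cell division were lower but dim. Of 26 measured cell cycle genes 15 fell and all 26 had a negative difference, yet 24 were not well above background in either group. Among all 30788 genes tested 12229 had a positive difference, and 23037 were not well above background in either group. With only genes above background on at least 5 arrays kept, 1 fell. That filter removed dim genes such as Cdk1 from the fit untested, so its count and the 15 do not cover the same genes. The count of 15 was 10 without control replicate 3 and 19 without control replicate 5. Cdk1, the kinase that starts mitosis, measured 6.14, 6.08, 6.06, 6.25 and 6.08 in GenX2 livers, against 6.37, 6.69, 6.84, 6.90 and 6.42 in control livers, none of them above background (limma adjusted p = 0.00354). Plk1, a kinase of the mitotic spindle, was at least 1.17-fold lower, as GenX2 livers were not above background for it. GenX2 arrays other than replicate 4 had lower negative-control signal and more genes above background than control arrays; the part of this in the lower dim genes was not tested. In bulk liver, fewer dividing cells and less RNA per cell cannot be told apart.

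The promoter of Cdk1 is printed because it carries 3 CCAAT boxes, the motif bound by NF-Y that recurs upstream of G2 and M phase genes. The window is chr10:69352863-69353162 on the minus strand (RefSeq, GRCm38.p6), with boxes in capitals, here all on the reverse strand.
Cdk1: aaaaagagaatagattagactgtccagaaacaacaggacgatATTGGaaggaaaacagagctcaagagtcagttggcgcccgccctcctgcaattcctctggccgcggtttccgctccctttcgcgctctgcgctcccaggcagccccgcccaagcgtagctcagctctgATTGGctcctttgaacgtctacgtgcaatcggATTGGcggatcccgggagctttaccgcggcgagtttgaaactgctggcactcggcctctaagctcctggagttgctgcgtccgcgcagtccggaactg
Of the 15 cell cycle genes that fell 13 had a promoter, and 12 of these held CCAAT on either strand (92.3%), against 12289 of all windows (37.4%). The E2F element TTTNGCGC was in 2 of the 13 (15.4%), against 452 of all windows (1.38%). These matches describe the genes that were called, and the box is also frequent among promoters at large.

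Markers of other cells showed few calls. None of the markers of T, B and natural killer cells (12 genes), erythroid cells (8), cholangiocytes (8) or endothelium (12) was called in the limma fit, with 1, 0, 2 and 0 of them at an unadjusted p under 0.05. Of these lists 12, 6, 5 and 2 genes, in that order, were not well above background in either group. Pancreatic acinar (5) and muscle (9) markers were not well above background in either group and none was called, with 3 and 2 at an unadjusted p under 0.05. Among all 30788 genes tested 5153 had such a p. All 10 measured hepatocyte markers were above background on arrays of one or both groups, 1 rose, and the list median was 0.00. Neutrophil (10 genes) and stellate cell (11) markers had 1 gene lower each and adipocyte markers (8) 1 higher, and none of these calls held in every fit that left out 1 array. At an unadjusted p under 0.05 these 3 lists had 5, 4 and 1 genes. All 10 neutrophil markers had a negative difference, but none was well above background in either group. Nor were 4 of the stellate cell and 5 of the adipocyte markers. Prolactin family genes of the placenta were highest on 1 control array and were named after their values were seen, except Prl2c2. Prl2c2 measured 4.29, 3.74, 4.35, 3.82 and 4.00 in GenX2 livers, against 7.97, 5.08, 5.14, 4.47 and 5.26 in control livers. Every control liver lay above every GenX2 liver for Prl2c2, and its call held without control replicate 1. Prl2c2, which is nearly identical to Prl2c5, was not called in the fit of the 10 arrays alone (adjusted p = 0.164, against 0.0172 in the fit of 25). Prl8a2 measured 3.88, 4.09, 4.02, 3.79 and 3.71 in GenX2 livers, against 7.62, 5.57, 5.14, 3.67 and 4.66 in control livers. Control replicate 1 was the highest for both, and its value for Prl2c2 was the only one of the 20 above background. The call of Prl8a2 was lost without any 1 array other than GenX2 replicate 4, control replicate 4 or control replicate 5 (adjusted p = 0.0533 without control replicate 1). Peg10 and Afp, also named after their values were seen, were called lower too, by -0.77 and -0.81 (limma adjusted p = 0.028 and 0.0199). Peg10 was highest in control replicate 1 (8.04) and Afp in control replicate 5 (7.56).

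Several genes on no list, named after their values were seen, had among the smallest adjusted p. Hsd17b11, a hydroxysteroid dehydrogenase found on lipid droplets, differed by 2.02 ± 0.21 (SE, limma adjusted p = 2.12e-06). Slc38a4, a neutral amino acid transporter of hepatocytes, differed by 1.35 ± 0.14, and Vwa8, a mitochondrial AAA-type protein, by 1.26 ± 0.12 (SE each). Ddah1, which breaks down methylated arginines, was at least 2.16-fold higher (limma adjusted p = 1.71e-05), as control livers were not well above background for it. All 4 had no overlap between GenX2 and control livers.

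The step between the doses of GenX was compared on the same scale. GenX10 livers differed from GenX2 livers at 74 genes (0.24% of those tested), 55 higher (0.179%) and 19 lower (0.0617%). Of the 67 left after predicted genes were set aside, 25 were also called in GenX2 against control livers, 24 of them in the same direction. The counts depend on the fit: 14 genes were called when only these 10 arrays entered it. Without GenX10 replicate 1 the count was 36, without GenX2 replicate 5 it was 42, without GenX2 replicate 2 it was 46 and without GenX2 replicate 1 it was 127.

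Some genes climbed in 2 steps. Fabp3, a fatty acid binding protein of heart and muscle, measured 7.30, 7.37, 7.32, 7.09 and 6.97 in control livers, 7.0, 8.99, 9.92, 8.75 and 8.95 in GenX2 livers, and 10.96, 10.95, 10.98, 10.32 and 10.92 in GenX10 livers. GenX2 replicate 1 lay among the controls and the other 4 between the groups. The difference of GenX10 from GenX2 livers was 2.10 ± 0.31 (SE, limma adjusted p = 0.00139, and 0.117 in the fit of these 10 arrays alone), with the processed pseudogene Fabp3-ps1 a possible source of shared signal. Ly6d, a surface protein of the Ly6 family, measured 6.67, 6.73, 6.64, 6.71 and 6.65 in control livers, 7.60, 8.45, 9.44, 8.83 and 8.46 in GenX2 livers, and 10.75, 10.58, 10.36, 10.21 and 10.35 in GenX10 livers. All 3 groups were apart (GenX10 minus GenX2 1.90 ± 0.29 SE, limma adjusted p = 0.00149). Ces1c took a step downwards at each dose, with GenX10 livers between 10.11 and 10.77, all below GenX2 livers (difference -0.66, adjusted p = 0.00149, and 0.076 in the fit of these 10 arrays alone). The call of Abcc4, higher by 1.09 in GenX10 livers, was lost without GenX10 replicate 1 (adjusted p = 0.0578).

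Other genes differed only at the upper step, in the sense that GenX2 livers did not pass against control. Slc25a4, the muscle-type adenine nucleotide carrier of mitochondria, measured 7.45, 7.22, 7.75, 7.65 and 7.71 in control livers, 7.78, 7.41, 7.80, 7.55 and 7.66 in GenX2 livers, and 9.59, 9.44, 9.48, 8.75 and 8.82 in GenX10 livers. GenX2 and control livers overlapped while all GenX10 livers were higher (GenX10 minus GenX2 1.57 ± 0.19 SE, limma adjusted p = 1.09e-04). Mup3, a major urinary protein made by hepatocytes, measured 10.10, 10.47, 10.62, 10.09 and 10.49 in control livers, 10.43, 10.34, 8.75, 8.81 and 9.63 in GenX2 livers, and 7.65, 7.27, 7.88, 7.74 and 7.05 in GenX10 livers. The GenX2 livers were split, with replicates 1 and 2 inside the control range, and the GenX10 livers were all lower (GenX10 minus GenX2 -2.07 ± 0.26 SE, limma adjusted p = 1.44e-04). Pigr, which carries immunoglobulin A into bile, measured 7.41 to 8.13 in GenX10 livers, against 8.68 to 10.93 in GenX2 livers, and differed by -1.95 (adjusted p = 0.00786, and 0.0757 in the fit of these 10 arrays alone). Of the 67 genes, 10 were called in every alternative fit in which they were tested, the fold minimum aside, among them Ly6d, Slc25a4 and Mup3. The filter on dim genes removed 3 of the 10 from its fit, and these 3 do not include Ly6d, Slc25a4 or Mup3.

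**Figure D5:**
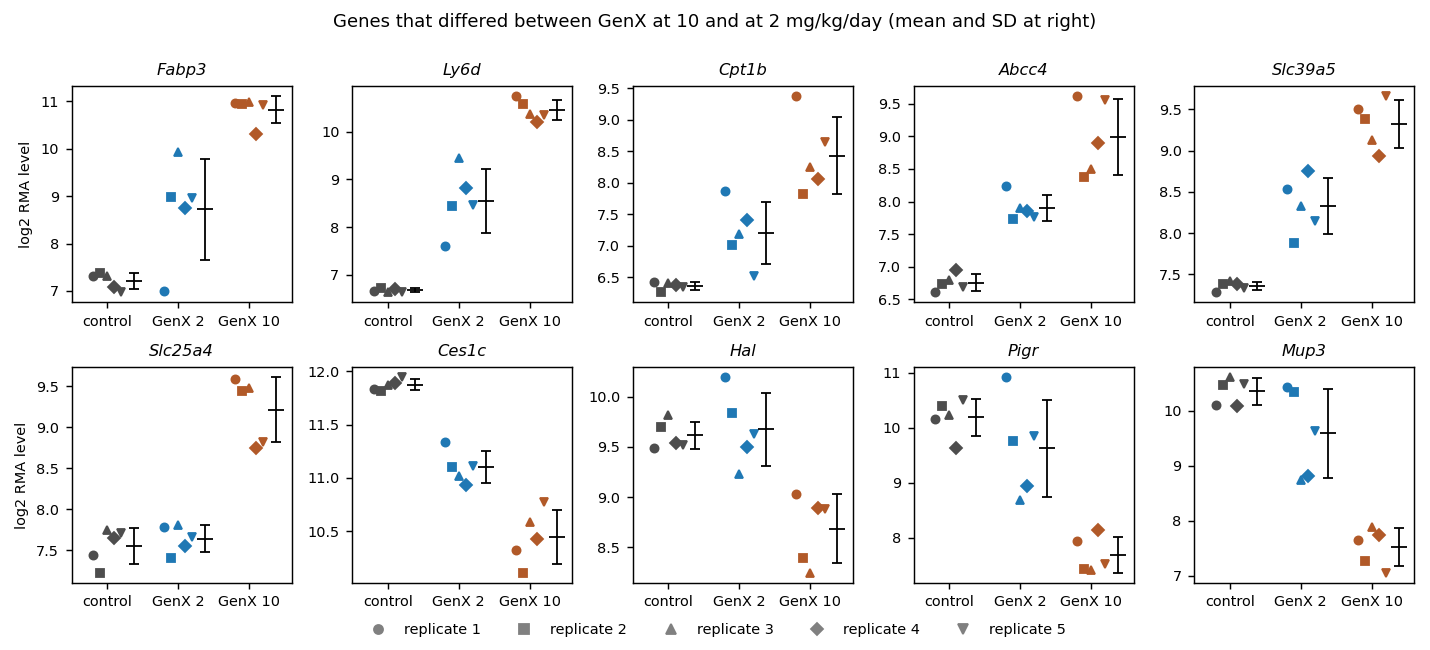
Log2 RMA level (vertical axis) of 10 genes that differed between GenX10 and GenX2 livers, in control, GenX2 and GenX10 livers, 5 arrays each, with marker shape giving the replicate number and mean ± SD at the right. Fabp3 and Ly6d climb at each dose, Ces1c steps down at each dose, and Slc25a4, Hal and Pigr depart from control chiefly at 10 mg/kg/day.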

How the data were processed

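RNA of maternal livers was hybridised to Affymetrix whole-transcript arrays, per the labels' protocols. The deposited values are log2 levels that the authors made with RMA, a method that subtracts background, equalises the arrays by quantiles and combines the probes of a gene; RMA and build mm10 are named per the submitters' processing notes, without versions. RMA compresses dim probes and gives every array nearly the same distribution, so a shift of most genes would be partly removed. The number of arrays limits the precision. Levels in different probes are not comparable.

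Of 65956 transcript clusters, 32750 were annotated. Probes naming several genes (1487) were left out and the brightest probe was kept for 366 genes with several, which gave 30788 genes. Some list genes are not analysed here. The 25 maternal arrays entered 1 fit of 5 groups in limma 3.58.1 (R 4.3.3); tables were made in Python 3.11.15. Tests were two-sided with Benjamini-Hochberg adjustment over all genes. Background was set per array at the 95th percentile over the 5222 negative control features. A lower bound sets the bright group's mean against, in the other group, the mean over arrays of the lowest signal counted as above background or the probe's own, whichever is higher.

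The members, the gene lists (46 of pathways, 11 of cell markers) and the tests were chosen with earlier results of these data known. Some genes stand on several lists and are counted in each. Named genes are the 15 largest rises and 15 largest falls without overlap between the groups, up to 5 called members per list, or the smallest p where none was called, and a few anchors; genes outside it are said to be. The fit was also run on simulated data with known changes. Alternatives were the 2 groups alone, array weights, an intensity trend, median centring, repeated quantile normalization, a filter on dim genes, averaged probes, all 50 arrays in 1 fit, a 1.5-fold minimum, a replicate block and leaving out each array.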

Additional observations from a re-analysis of the deposited data

Results flagged for a closer look

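Among the named genes, 23 arrays stood apart from the other 4 of their group, by a gap to the nearest array of more than 0.71 of the group's range. They came from 338 groups of 5 arrays, so 6.8% of the groups held one, and chance gives such a gap in about 1 in 20 groups. GenX2 replicate 1 held 11 of the 23. Over all genes the order was another: GenX2 replicate 4 stood apart for 1645 genes (5.34%), GenX2 replicate 1 for 594 (1.93%) and control replicate 1 for 562 (1.83%). GenX2 replicate 1 was highest of its group for Acaa1b (12.04), Cyp1a2 (11.57), Gstt2 (8.89), Gstk1 (10.58), Rdh16 (9.54), Aldh6a1 (11.06), Fech (9.05) and Cyp2b10 (10.59), and lowest for Slc16a6 (8.35), F10 (9.61) and Igfbp2 (10.58), on the log2 scale. These are mostly enzymes of detoxification and of aldehyde, retinol and haem metabolism, together with a monocarboxylate transporter, coagulation factor X and an IGF binding protein.

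GenX2 replicate 4 was lowest of its group for Kif11 (4.63), Acsl5 (11.22), Mttp (10.07) and Slc25a13 (9.89). GenX2 replicate 5 was lowest for Acox2 (9.63) and highest for Txnip (10.00). Among control livers, replicate 1 was highest for Prl2c2 (7.97) and lowest for Hgf (6.98). Control replicate 4 was highest for Pctp (8.01) and Cbr1 (8.60), and control replicate 5 was highest for Fabp1 (12.04) and lowest for Hsd3b5 (5.28), a steroid dehydrogenase whose level differs between the sexes.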

How the results depend on the processing

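For GenX2 against control livers the count of 1039 called genes was 312 with a minimum change of 1.5-fold, 598 with only the 2 groups in the fit and 2630 with array weights, and it ran from 704 to 2435 with 1 array left out. The 207 called list genes were 124 at 1.5-fold and 161 to 255 with 1 array left out. For GenX10 against GenX2 livers the 74 were 40 at 1.5-fold, 14 in the fit of 2 groups and 147 in a fit of all 50 arrays, and ran from 36 to 127. The share of calls that were higher, 72.2%, was 85.5% after median centring (970 higher, 165 lower), 88.1% with dim genes removed (802 higher, 108 lower) and 54.9% with array weights (1443 higher, 1187 lower); the cause was not tested. The median of all genes was -0.0292, -0.0076 with quantile normalization repeated and 0.0163 after centring. The median of the growth hormone and sex-biased list, -0.11, turned to 0.0241 with dim genes removed, where fewer of its genes were tested. Of 145 named genes called, 103 were called in every alternative that tested them, the fold minimum aside (12 of them were removed by the filter on dim genes), 42 were lost in at least 1 and 28 in more than 3, and no named gene changed direction. In the labels same-numbered dams shared only a number, and whether they were handled together was not tested. The correlations of their deviations for GenX2 and control livers were -0.094, 0.149, 0.055, 0.245 and 0.107. For GenX10 and GenX2 livers they were 0.218, -0.105, 0.388, -0.055 and -0.2. With the replicate block the counts were 996 called genes, 203 list genes and 56 genes for GenX10 against GenX2.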

Other observations

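The remaining gene lists held scattered calls in GenX2 livers. Over all genes tested the share called was 3.37%, with 2.44% higher and 0.939% lower. Of 7 genes of ketone body synthesis and use 3 rose and 1 fell, with Acat1, a thiolase of ketone metabolism, higher by 0.65 (adjusted p = 3.85e-05). Among 10 pyruvate dehydrogenase kinases and phosphatases 3 rose, among them Pdk4, which shuts off the complex, at 11.01 to 11.25 in GenX2 livers, against 6.73 to 7.90 in control livers. Of 20 glutathione transferases 4 rose, of 19 aldehyde and alcohol dehydrogenases 5, of 24 genes of iron and haem 5 (2 without GenX2 replicate 3, GenX2 replicate 5 or control replicate 2). Blvrb, which reduces biliverdin, differed by 0.56 (adjusted p = 3.63e-04). Of 19 mitochondrial carriers and dynamics genes 3 rose (6 without GenX2 replicate 4), of 16 heat shock and proteasome genes 2 (0 without GenX2 replicate 1, and 7 without GenX2 replicate 4), and of 17 hepatokine genes 2 (4 without GenX2 replicate 4), with Adipor2, an adiponectin receptor, at 0.77 (adjusted p = 0.00109).

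Hormone and zonation lists had few calls. A count of 1 or 2 on lists of this size is to be read beside the 3.37% called over all genes tested. Of 22 growth hormone, IGF and sex-biased genes 2 rose and 1 fell (6 calls without GenX2 replicate 4). Hsd3b5, a steroid dehydrogenase, was lower at 5.17 to 5.69 in GenX2 livers, against 5.28 to 7.03 in control livers, without rising well above background in either group. Of 16 pericentral genes 1 rose and 1 fell. A single gene fell in each of 3 lists, 25 of the urea cycle and amino acid breakdown, 18 of the clock and 19 of interferon response, 1 rose among 19 of glucose output, and of 20 in the unfolded protein response 1 rose and 1 fell, with 18 differences below 0. Over all genes tested 12229 of 30788 differences were positive. Of the 30788 genes 23037 were not well above background in either group, against 4 of the 20 on the unfolded protein list. The unfolded protein list had 1 call in place of 2 without GenX2 replicate 1, 2 or 3 or without control replicate 1, 3, 4 or 5, and the urea cycle list had 2 in place of 1 without GenX2 replicate 1 or 5. The clock, interferon and glucose lists had 0 calls in at least 1 fit that left out an array. In limma's fit none was called among 5 major urinary proteins, 15 p53 targets, 19 glucocorticoid and immediate early genes, 12 periportal genes and 19 extracellular matrix genes, with 2, 3, 5, 1 and 3 at an unadjusted p under 0.05. Such a p was found for 5153 of all 30788 genes tested. The major urinary protein list had 2 calls without GenX2 replicate 1, and its median was 0.81 on that array, against -0.82 to 0.04 on the other GenX2 arrays.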
